A study of Mus musculus with 16 samples.

Results

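The comparison described here sets cultured mouse cortical neurons given NMDA against the control culture titled CTRL2, by RNA-seq, with 1 library a side. The tables listed 22440 genes by symbol, and the 13028 genes with at least 1 FPKM in either library were compared (FPKM, fragments per kilobase of transcript and unit of sequencing depth). For each gene the measure was the log2 of (NMDA + 1)/(CTRL2 + 1), minus its median over the 13028 genes (0.02), and is called the relative log2 fold below. The pseudocount of 1 FPKM understates the change of low genes. Small RNA loci, 210 of the genes compared, were set apart from the other 12818.

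The series holds 16 samples, of which these libraries are 2, and it asked about DNA breaks and gene expression after neuronal activity. Both cultures were dissociated cortical neurons from Swiss-Webster embryos at embryonic day 16, kept in neurobasal medium with B27 and carrying no transgene in the labels. By the labels, most experiments used 50 µM NMDA over 10 min, followed by 10 min of recovery without NMDA, and that schedule is not restated for this library. The title of CTRL2 names no treatment, and it is taken as the control of NMDA because all 63 genes of the authors' deposited comparison table for NMDA carry the CTRL2 values. A further control library of the series, titled CTRL, is set beside some values after multiplying it by 3.05, the median ratio to CTRL2. Relative log2 folds against CTRL were computed otherwise, with NMDA divided by its median ratio to CTRL before 1 FPKM was added. Their pseudocount and level filter are thus on the scale of CTRL. Their sizes are therefore not directly comparable with those against CTRL2. Whether a library came from 1 culture or from pooled dishes was not given in the sources used here.

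NMDA is the agonist that gives its name to the NMDA-type glutamate receptors, ligand-gated channels built from Grin subunits that admit calcium when they open. In cortical neurons the calcium signal reaches the nucleus through calmodulin-dependent kinases and the MAP kinase pathway, where CREB, SRF and MEF2 switch on immediate-early genes within minutes, without new protein synthesis. Many of these genes encode transcription factors, such as Fos and Npas4, whose targets include synaptic proteins that appear later. The transcripts of very long genes take much longer to complete than those of the compact immediate-early genes.

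With 1 library a side no difference has a replicate check and no test was possible. Low values put the depth near 19.1 M fragments in CTRL2 and 17.6 M with NMDA, and 12886 and 12775 genes reached 1 FPKM. Intervals of FPKM ratios below are exact 95% intervals (Clopper-Pearson, conditional on the sum) of the estimated fragments behind each gene, and they cover only counting error. Fragments were estimated with the longest annotated transcript of a gene, so an interval is too narrow where the FPKM rests on shorter forms. Among the 12818 genes that were not small RNA loci the relative log2 fold had an SD of 0.19, from 0.26 below a mean of 2 FPKM to 0.11 at 100 FPKM or more. CTRL2 and CTRL lay much further apart, with an SD of 0.67 over 11202 genes after scaling, and NMDA against CTRL gave 0.66. The last comparison shares the NMDA library with the main one, so its values are set side by side and not counted as separate support.

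Differences of 1.5-fold or more were few outside the small RNA loci. Of the 12818 genes, 31 (0.242%) passed it upward with NMDA and 80 (0.624%) downward. A smaller threshold, a relative log2 fold of 0.32 either way, was passed upward by 165 (1.29%) and downward by 510 (3.98%), and is the one meant where a gene is said to pass the smaller threshold. Among the 210 small RNA loci 53 passed 1.5-fold upward (25.2%) and 92 downward (43.8%). These hold all 96 loci listed at 0 in 1 library, which were compared only because of their value in the other. Over all 13028 genes, 84 (0.645%) lay 1.5-fold or more above CTRL2 and 172 (1.32%) below it. The smaller threshold gave 225 (1.73%) above and 613 (4.71%) below, and 2-fold gave 54 (0.414%) and 95 (0.729%). The authors' deposited table lists 63 of the 13028 (0.484%), 25 as higher and 38 as lower. Counts of list members below are read against these shares.

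**Figure D1:**
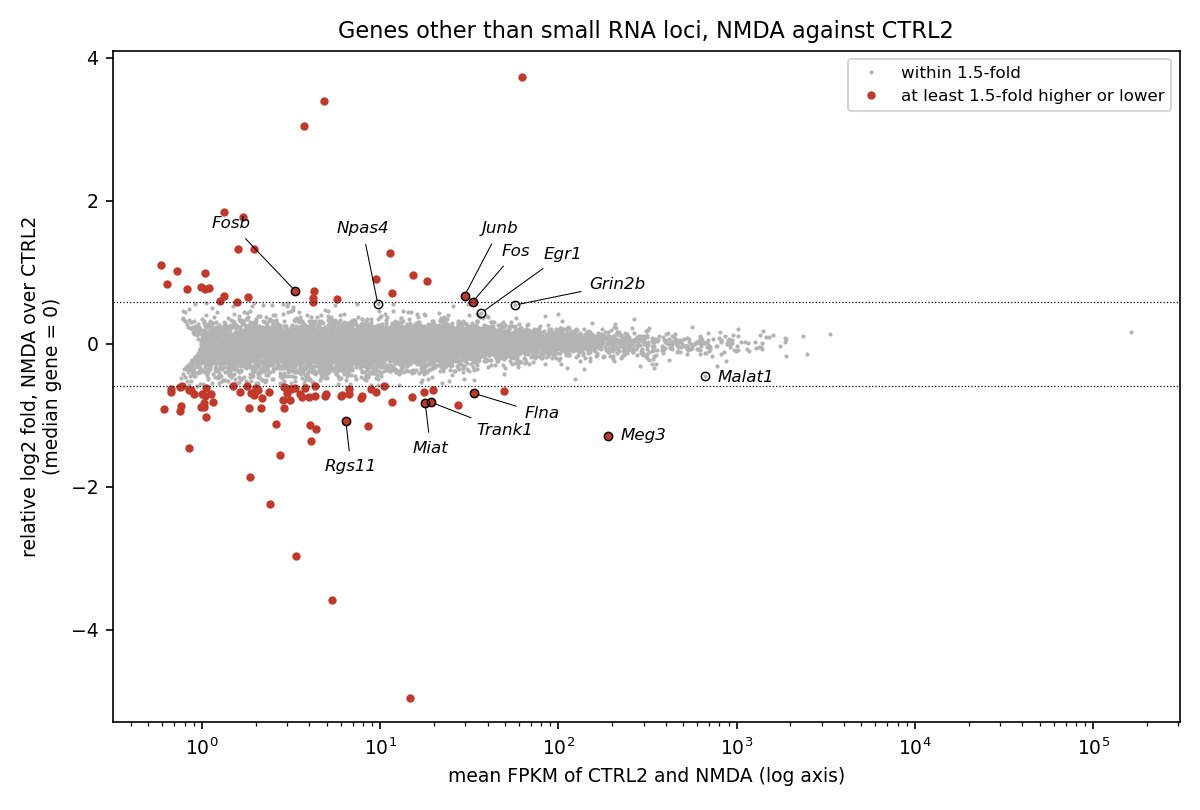
Relative log2 fold (y axis) against mean FPKM (x axis, log scale) for the 12818 genes that were not small RNA loci, 1 dot a gene, with dotted lines at 1.5-fold. Most genes lie in a band that narrows with level, and Fos, Junb, Fosb and Meg3 lie outside it.

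The promoters of Fos, Fosb, Junb and Npas4 are shown because these were the 4 largest relative log2 folds upward among the activity-induced factors. Egr1 and Ier2, the other factors past the smaller threshold upward, had no promoter among the sequences used and are not shown. The sequences are RefSeq windows of 300 bases on build GRCm38.p6, from 250 bases before the start of the gene to 50 after it, and are not in the mm9 coordinates of the tables. Capitals mark TGACG or its complement CGTCA, the core of the cAMP response element (CRE) that CREB family proteins recognise, and the letters TATAAA, the core of the TATA box, on the gene's strand.
Fos, chr12:85473640-85473939, plus strand: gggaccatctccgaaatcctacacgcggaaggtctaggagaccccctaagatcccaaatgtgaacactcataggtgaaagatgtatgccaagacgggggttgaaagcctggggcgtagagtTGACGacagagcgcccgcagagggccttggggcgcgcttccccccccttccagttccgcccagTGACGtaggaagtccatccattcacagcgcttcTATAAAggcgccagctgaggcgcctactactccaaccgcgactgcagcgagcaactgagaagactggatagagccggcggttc
Fosb, chr7:19309996-19310295, minus strand: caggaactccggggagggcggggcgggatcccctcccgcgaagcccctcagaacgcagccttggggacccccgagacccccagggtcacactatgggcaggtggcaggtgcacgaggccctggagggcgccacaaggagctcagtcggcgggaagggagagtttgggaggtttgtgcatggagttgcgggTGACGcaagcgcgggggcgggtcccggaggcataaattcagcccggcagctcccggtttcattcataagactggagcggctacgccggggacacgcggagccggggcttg
Junb, chr8:84978699-84978998, minus strand: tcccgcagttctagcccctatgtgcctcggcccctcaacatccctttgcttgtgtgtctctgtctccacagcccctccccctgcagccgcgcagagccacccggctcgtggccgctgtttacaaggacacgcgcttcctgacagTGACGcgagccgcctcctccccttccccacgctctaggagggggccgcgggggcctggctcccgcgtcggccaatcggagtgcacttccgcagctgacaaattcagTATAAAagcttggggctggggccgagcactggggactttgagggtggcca
Npas4, chr19:4989922-4990221, minus strand: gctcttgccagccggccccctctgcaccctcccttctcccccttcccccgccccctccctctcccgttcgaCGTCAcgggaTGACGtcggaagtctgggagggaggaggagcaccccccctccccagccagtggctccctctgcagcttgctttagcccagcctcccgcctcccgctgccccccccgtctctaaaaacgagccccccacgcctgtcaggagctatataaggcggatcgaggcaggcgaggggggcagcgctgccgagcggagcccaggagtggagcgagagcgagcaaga
The CRE core, read on both strands, stood 129 and 66 bases before the start in Fos, 60 bases before it in Fosb, 106 in Junb, and 179 and 169 in Npas4. Of all 32851 promoters in the table, 6837 (20.8%) held it, as did 3601 of 11701 promoters of genes compared (30.8%). The full CRE, TGACGTCA, which contains the core on both strands, was in none of these windows and in 1.79% of all promoters. TATAAA began 33 bases before the start in Fos and at the annotated start itself in Junb, and was in 8.32% of all. Of the 37 measured factors of the activity-induced list 28 had a promoter in the table, with 40 windows in all, and 26 of these (65%) held the core. Among the 36 windows of factors that did not pass the smaller threshold upward 22 (61.1%) held it, beside all 4 windows printed here. Egr1 and Ier2 could not be scored. A match of letters is a description and not a measured binding site.

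Activity-induced transcription factors divided into a few that were higher with NMDA and many that were level or lower. Of 37 measured, 6 passed the smaller threshold upward and 2 downward, and 3 were 1.5-fold or more higher and 0 lower. The list's median was -0.04, with 15 members above 0, beside 0 for all genes by construction. These factors are among the first genes neurons transcribe after synaptic input. The 5 higher members that the authors' deposited table lists are Fosb, Junb, Fos, Npas4 and Egr1.

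AP-1 proteins are dimers of Fos and Jun family members, and 3 of the 9 measured were higher. Fosb, a Fos family subunit (chromosome 7, 19888045 to 19895394, mm9), was at 2.21 FPKM in CTRL2 and 4.46 with NMDA, a ratio of 2.01 (1.66 to 2.46). Junb, a Jun family subunit in 1 exon (chromosome 8, 87500808 to 87502647), was at 22.4 and 37.0 FPKM, a ratio of 1.65 (1.51 to 1.81). Fos (chromosome 12, 86814851 to 86818219) was at 25.9 and 40.2 FPKM, a ratio of 1.55 (1.43 to 1.68). The other subunits did not share this. Jun was at 25 and 26.4 FPKM, Jund at 45.1 and 44.4, and Fosl2 at 14.7 and 13.5. Maff, a small Maf protein that lacks an activation domain, was at 3.12 and 2.34 FPKM (relative log2 fold -0.33), and Atf3, a stress-responsive partner of Jun proteins, at 6.42 and 5.09 (-0.31).

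Egr factors are zinc finger proteins, and Nab1 and Nab2 are their corepressors. Egr1 was at 30.9 FPKM in CTRL2 and 42.6 with NMDA, a ratio of 1.38 (1.30 to 1.47), while Egr3 was at 19.5 and 15.5 (relative log2 fold -0.33). Egr2 was at 2.83 and 2.80 FPKM, Egr4 at 9.67 and 10.3, Nab1 at 8.80 and 8.82, and Nab2 at 5.5 and 5.4. The family therefore had 1 member past the smaller threshold in each direction. Against CTRL the relative log2 fold was 1.4 for Egr1 and 0.33 for Egr3, so the direction of Egr3 turned with the control. Nr4a proteins are orphan nuclear receptors. Nr4a1 was at 11.5 and 13.6 FPKM, Nr4a2 at 3.04 and 3.23, and Nr4a3 at 17 and 15.4, with none past the smaller threshold.

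Npas4, a basic helix-loop-helix factor made chiefly in neurons (chromosome 19, 4984355 to 4989971), was at 7.57 FPKM in CTRL2 and 11.8 with NMDA, a ratio of 1.56 (1.39 to 1.76). Ier2, an immediate-early nuclear protein, was at 11.2 and 15 FPKM (relative log2 fold 0.36), and Crem, whose ICER form represses CREB targets, at 4.74 and 6.18 (0.30). These 2 are not in the authors' deposited table. Ier5 was at 5.56 and 4.44 FPKM, Bhlhe40, a circadian repressor, at 7.48 and 6.06, Klf4 at 1.13 and 0.857, and Srf, which itself drives immediate-early genes, at 10.6 and 9.18. Their relative log2 folds lay between -0.30 and -0.21. The remaining members stayed closer to 0, among them Myc at 12 and 12.1 FPKM and Klf10, which was at 11.2 in both.

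The control culture was not silent for these genes. In CTRL, after scaling, Fos stood at 8.16 FPKM, Fosb at 0.301, Npas4 at 4.71, Egr1 at 14 and Junb at 19.7, all below both CTRL2 and NMDA. Against CTRL the relative log2 folds with NMDA were 1.92 for Fos, 1.15 for Fosb, 0.92 for Npas4, 1.4 for Egr1 and 0.79 for Junb. The direction of these 5 was the same against either control, as was that of Ier2. The size for Fos was 0.59 against CTRL2, where the pseudocount is on another scale. Of the 2 factors past the smaller threshold downward, Maff kept its direction (-0.23 against CTRL) and Egr3 turned. Atf3 also turned, to 0.30, and so did the median of the list, from -0.04 to 0.07 over the 34 members compared with CTRL. CTRL is the control of another treatment, and it also differed from CTRL2 at abundant small RNA loci. After scaling, Scarna2 was at 82637 FPKM in CTRL2 and 0 in CTRL, Rpph1 at 49190 and 17319, and Mir5109 at 953576 and 1.70e+06. In the distance of CTRL from CTRL2, a difference between cultures and a difference between libraries cannot be told apart.

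**Figure D2:**
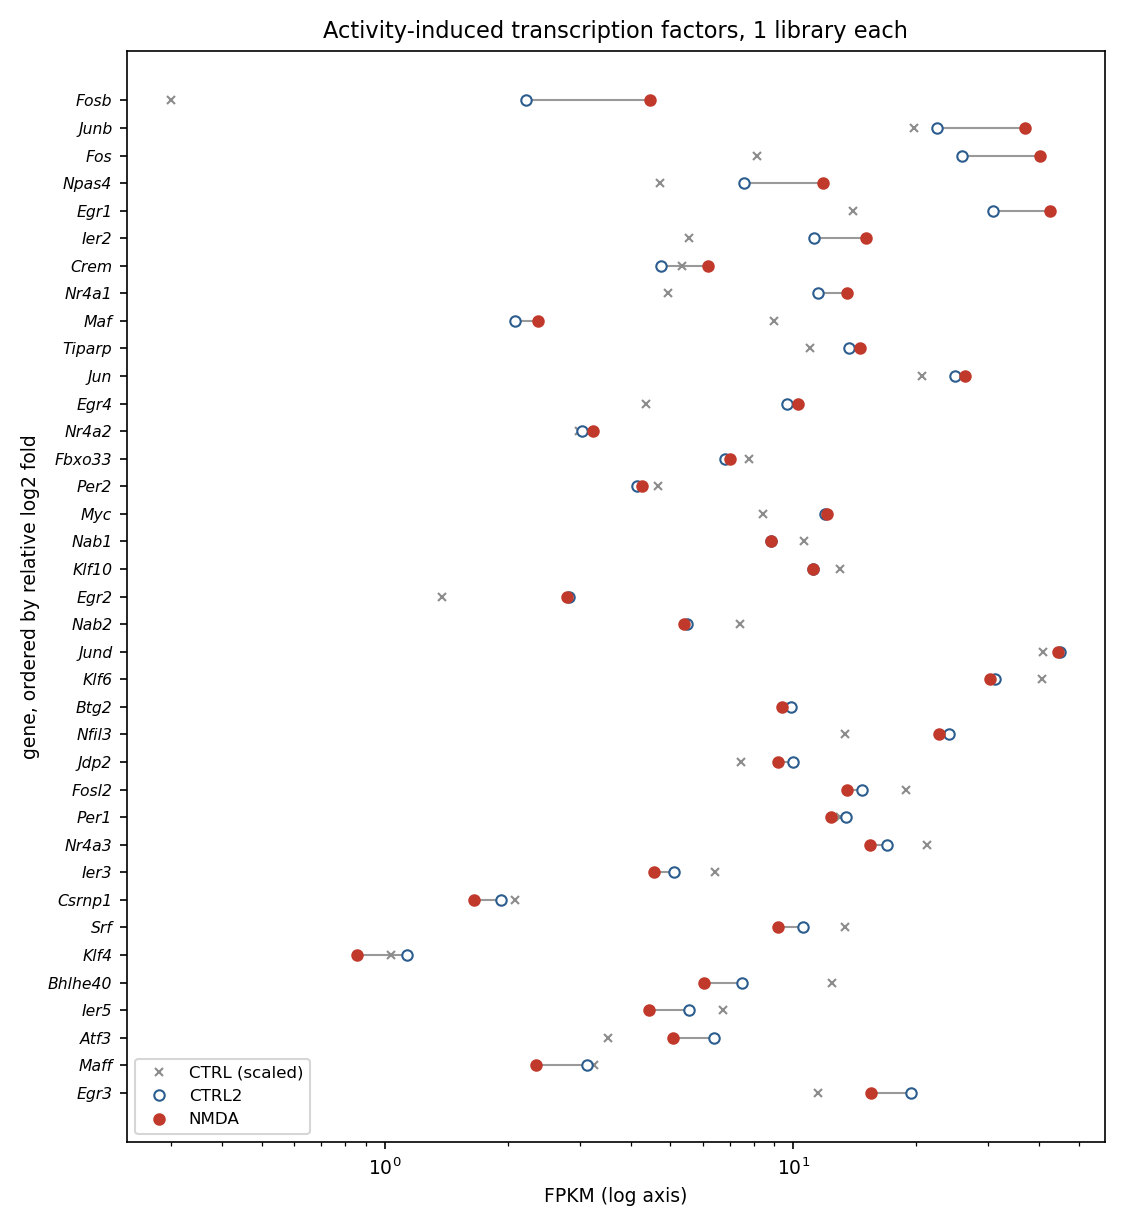
FPKM (x axis, log scale) of the 37 measured activity-induced transcription factors in CTRL2 (open circles), NMDA (filled circles) and CTRL after scaling (crosses), 1 library each, ordered by relative log2 fold. Filled circles lie clearly to the right of open ones for Fosb, Junb, Fos, Npas4, Egr1, Ier2 and Crem at the top, and to the left from Csrnp1 down to Egr3 at the bottom.

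Effectors of activity, the proteins that act at the synapse or damp the signal, showed less. Of 49 measured 1 passed the smaller threshold upward and 1 downward, with a median of -0.03 (0.09 against CTRL, over 41). Arc, which drives endocytosis of AMPA receptors, was at 7.27 FPKM in CTRL2 and 9.66 with NMDA (relative log2 fold 0.34). Homer1, a postsynaptic scaffold with a short activity-induced form, was at 24.7 and 31.1 FPKM (0.30). The MAP kinase phosphatases, which switch off the kinases that induce immediate-early genes, had 5 of 7 members below 0, with Dusp6 at 26.9 and 22.2 FPKM and Dusp10 at 2.75 and 2.21. The growth arrest genes Gadd45b and Gadd45g were at 6.59 and 4.95 and at 30.3 and 25 FPKM. Gadd45b was the member past that threshold on the lower side.

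Regulators upstream of these genes had a median of 0.05 over 45 measured (-0.14 against CTRL), and 1 passed the smaller threshold, upward. It was Nfatc2, a calcineurin-dependent factor, at 3.41 FPKM in CTRL2 and 4.82 with NMDA (relative log2 fold 0.38). Camk4, a nuclear calmodulin-dependent kinase, was at 29.5 and 35.4 FPKM (0.23). Crtc3, a CREB coactivator, was at 4.61 and 3.84 FPKM (-0.24), and Elk1, the SRF partner, at 6.62 and 5.70 (-0.21). In a separate list, of phosphodiesterases, cyclases and kinases, the median was 0.06 over 51 measured (-0.20 against CTRL). Its MAP kinase and protein kinase C genes were above 0 in 20 of 23 cases, with a median of 0.07 and none past the smaller threshold.

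NMDA receptor subunits had the highest median of any list, 0.21 over 6 measured members, and 1 of 6 passed the smaller threshold. Grin2b, the subunit that dominates in immature cortex (chromosome 6, 135679823 to 136123529), was at 45.5 FPKM in CTRL2 and 67.8 with NMDA, a ratio of 1.49 (1.44 to 1.54). Grin2a, which replaces it with age, was at 10.7 and 13.7 FPKM (relative log2 fold 0.30), and Grin3a, a glycine-binding subunit, at 7.5 and 9.47 (0.28). The obligatory subunit Grin1 was at 87.2 and 97.6 FPKM (0.14). Grin2d was at 4.83 and 4.67 FPKM (-0.06). Grin2b is in the authors' deposited table, but against CTRL its relative log2 fold was -0.23, since CTRL stood at 78.3 FPKM after scaling.

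Metabotropic, AMPA and GABA receptor genes lay mostly slightly above the median gene. Of 7 metabotropic glutamate receptors, which signal through G proteins, 6 were above 0, with a median of 0.16. Grm5 was at 38.3 FPKM in CTRL2 and 46.4 with NMDA, Grm3 at 13.9 and 16.9, and Grm2 at 11.4 and 9.83. AMPA receptor genes had 11 of 15 above 0 and a median of 0.06, with the auxiliary subunit gene Cacng8 at 44.9 and 55.3 FPKM. Kainate and delta receptors had 3 of 7 above 0 and a median of 0.00. GABA receptors, which carry inhibition, had 11 of 14 above 0 and a median of 0.08, with Gabrb2 at 30.5 and 37.0 FPKM. None of these 4 groups had a member past that threshold.

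Genes of the synapse and of neuronal adhesion shared a small displacement upward. Postsynaptic scaffolds had 23 of 27 members above 0 and a median of 0.11, where 50.2% of the genes that were not small RNA loci lay above 0. Lrrc7, the densin scaffold, was at 19 FPKM in CTRL2 and 25.1 with NMDA (relative log2 fold 0.36), Dlgap2 at 7.23 and 8.94, and Shank1 at 28.7 and 34.3. At the presynaptic active zone 12 of 16 were above 0. Its giant scaffolds Pclo and Bsn, which tether vesicles at the release site, were at 9.63 and 13.9 FPKM (0.46) and at 17.8 and 24.9 FPKM (0.43). Synaptic vesicle genes had 34 of 47 above 0 and a median of 0.08, with none past the smaller threshold.

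Adhesion genes leaned the same way. Neurexins, neuroligins and leucine-rich repeat adhesion genes had 41 of 46 above 0 and a median of 0.11, with 1 past the smaller threshold each way. The teneurin genes Odz1, Odz4 and Odz2, whose proteins bridge the synaptic cleft, were at 19.5 and 25.9 FPKM, 16.4 and 20.5, and 30.5 and 37.0. Cntnap1, a paranodal adhesion protein of myelinated axons, was at 5.28 and 3.95 FPKM (relative log2 fold -0.37). The non-clustered protocadherins had 10 of 11 above 0 and a median of 0.16, with Pcdh19, a homophilic adhesion protein, at 13.4 and 18.6 FPKM (0.42). In the clustered family, whose alternative first exons give neurons their surface identity, the beta members had 18 of 20 above 0, the gamma members 14 of 22 and the alpha members 5 of 11. The clustered genes share a locus in the tables, and alpha and gamma isoforms share exons, so their reads could be split between them. The giant cadherins Fat4 and Fat3 were at 8.09 and 11.7 FPKM (0.46) and at 4.92 and 6.95 FPKM (0.40). Epha6, an ephrin receptor (chromosome 16, 59613147 to 60605357), was at 5.70 and 9.02 FPKM, a ratio of 1.58 (1.4 to 1.79), and its exons overlap a gene on the opposite strand.

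Channels of the cell membrane had list medians between 0.05 and 0.09. Voltage-gated calcium channels had 10 of 15 above 0, led by Cacna1e, the R-type pore, at 12.3 FPKM in CTRL2 and 17.4 with NMDA (relative log2 fold 0.44) and Cacna2d1, an auxiliary subunit, at 38.3 and 48.5 (0.31). Cacna1h, a T-type pore, was at 11.1 and 8.96 FPKM (-0.31). Potassium channels had 48 of 64 above 0, with 2 past the smaller threshold upward and 1 downward. Those 3 were the leak channel Kcnk12 at 15.1 and 20.7 FPKM (0.41), the channel-binding protein Kcnip2 at 12.5 and 16.4 (0.34) and the glial inward rectifier Kcnj10 at 13.8 and 10.6 (-0.37). Sodium channels had 5 of 7 above 0 with none past the smaller threshold. Among calcium stores and pumps 9 of 12 were above 0 with a median of 0.14 and none past the smaller threshold. The exchanger Slc8a1 was at 30.4 and 38.9 FPKM (0.320, just below that threshold at 0.322).

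The very large ankyrin, spectrin and cytolinker genes had the second highest median, 0.18, with 20 of 24 above 0, 4 past the smaller threshold upward and 0 downward. The 4 were Dync1h1, the dynein motor heavy chain, at 84.5 FPKM in CTRL2 and 115 with NMDA (relative log2 fold 0.42), Lrp1, an endocytic receptor, at 33.9 and 45.5 (0.39), Ank3, the ankyrin of the axon initial segment, at 19.2 and 25.2 (0.35), and Herc2, a ubiquitin ligase, at 19.9 and 25.9 (0.34). Neurofilament and microtubule-associated protein genes had 12 of 14 above 0, whereas tubulins had 4 of 13 above 0 and a median of -0.08. Against CTRL the medians were -0.21 for the very large genes, -0.19 for neurexins, neuroligins and leucine-rich repeat adhesion, -0.04 for postsynaptic scaffolds and -0.25 for calcium stores and pumps. The direction of these 4 lists thus turned with the control library. So did that of the smaller medians of the presynaptic active zone (-0.07 against CTRL), synaptic vesicle genes (-0.14), cadherins (-0.08), protocadherins (-0.22), Eph receptors and ephrins (-0.12), calcium channels (-0.15), sodium channels (-0.13) and chloride and cation transport (-0.08). The glutamate receptors other than the NMDA type were at 0.00 against CTRL. NMDA receptor subunits (0.09), GABA receptors (0.04) and potassium channels (0.02) stayed above 0 against CTRL. Single genes turned as well. Chloride and cation transport was left out of the following count. Of the 17 members of the receptor, synaptic, adhesion, channel and very large gene lists past the smaller threshold upward, 10 were below 0 against CTRL. Those 10 were Grin2b, Lrrc7 (-0.22), Pclo (-0.43), Fat4 (-0.78), Pcdh19 (-0.44), Epha6 (-0.40), Cacna1e (-0.18), Dync1h1 (-0.11), Ank3 (-0.53) and Herc2 (-0.77). Clcn5, of chloride and cation transport, turned as well, from 0.33 against CTRL2 to -0.11 against CTRL. Bsn (0.06), Odz1 (0.08), Fat3 (0.15), Lrp1 (0.18), Pcdhgb5 (0.31), Kcnk12 (0.99) and Kcnip2 (1.16) were above 0 against either control.

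**Figure D3:**
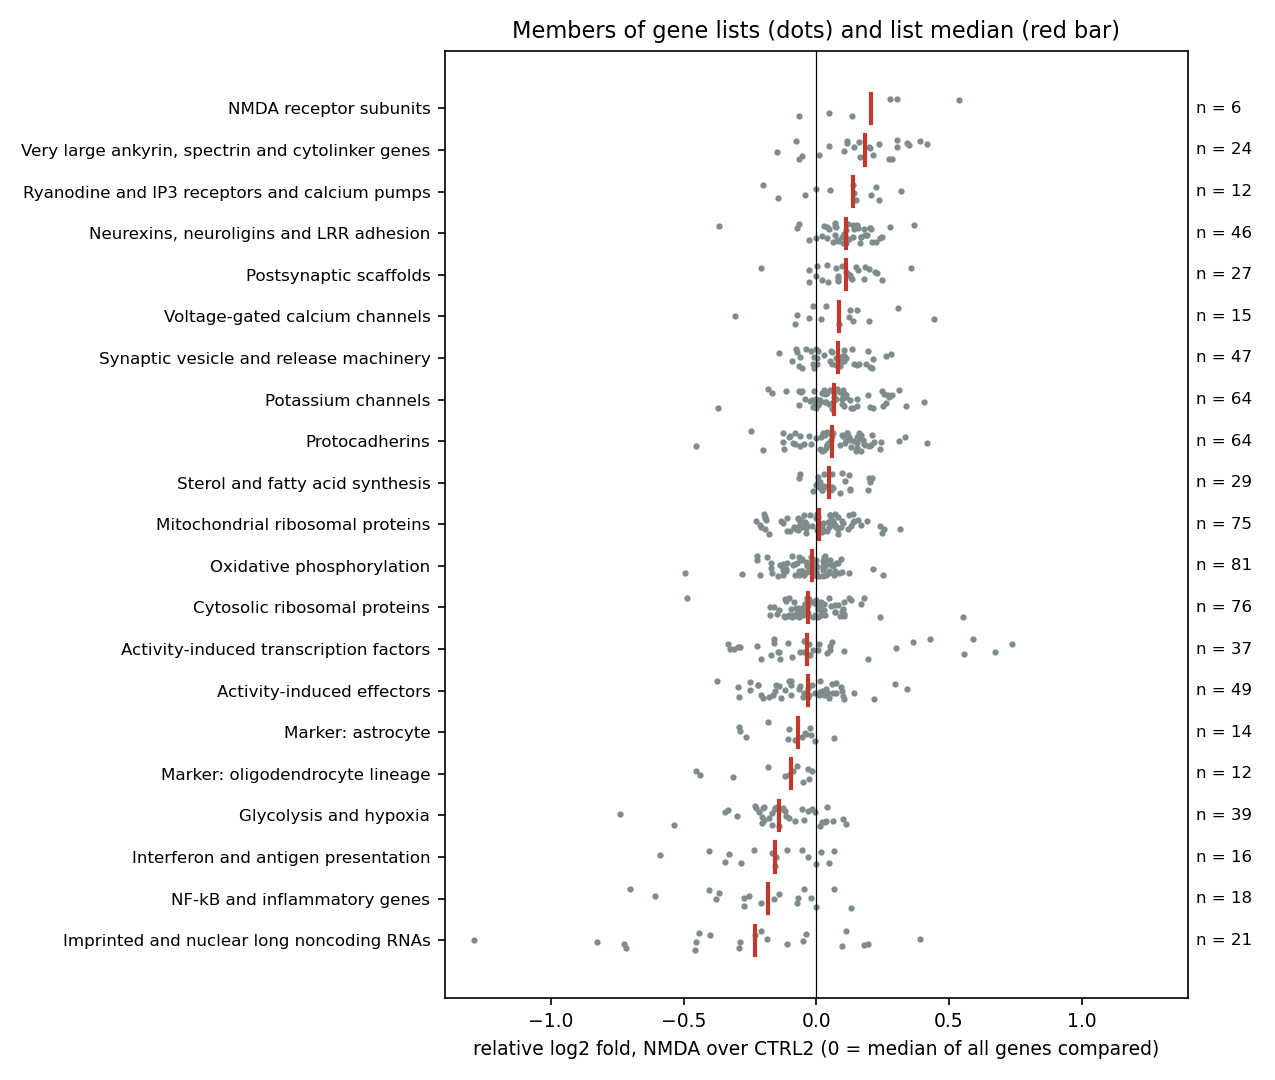
Relative log2 fold (x axis) of the measured members of 21 gene lists (grey dots, 1 a gene, spread vertically for visibility) with the list median as a red bar and n at the right. Medians run from 0.21 for NMDA receptor subunits to -0.23 for imprinted and nuclear noncoding RNAs, and 1 member, Ndufs5 at -2.98, lies outside the axis. These are values against CTRL2, and of all 61 list medians that could be set against CTRL 16 kept their sign there.

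Against CTRL2, relative fold moved with the size of the gene. Genes with a locus of their own had a median of -0.03 below 5 kb of genomic span (1346 genes) and -0.02 at 5 to 20 kb, and a median of 0.09 at 300 kb or more (328 genes), where 76.8% lay above 0. By length of the longest annotated transcript the medians went from -0.03 below 1 kb (579 genes) to 0.07 at 8 kb or more (509 genes). In the authors' deposited table, the 23 genes listed as higher that were not small RNA loci spanned 125 kb at the median, the 34 listed as lower 14.8 kb, and all 12818 genes 26.5 kb. Within a class of span the synaptic, adhesion, channel and large scaffold lists lay above genes in no list. The classes are wide, and spans were not matched within them. The lists were also chosen with earlier results of these data known, so the contrast is not independent of the data. Below 20 kb their median was 0.06 over 52 genes, beside -0.03 over 3877 genes in no list, and at 100 kb or more it was 0.11 over 143 beside 0.04 over 1149. What part of the list medians goes with span was not tested, and the values by size were not computed against CTRL.

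**Figure D4:**
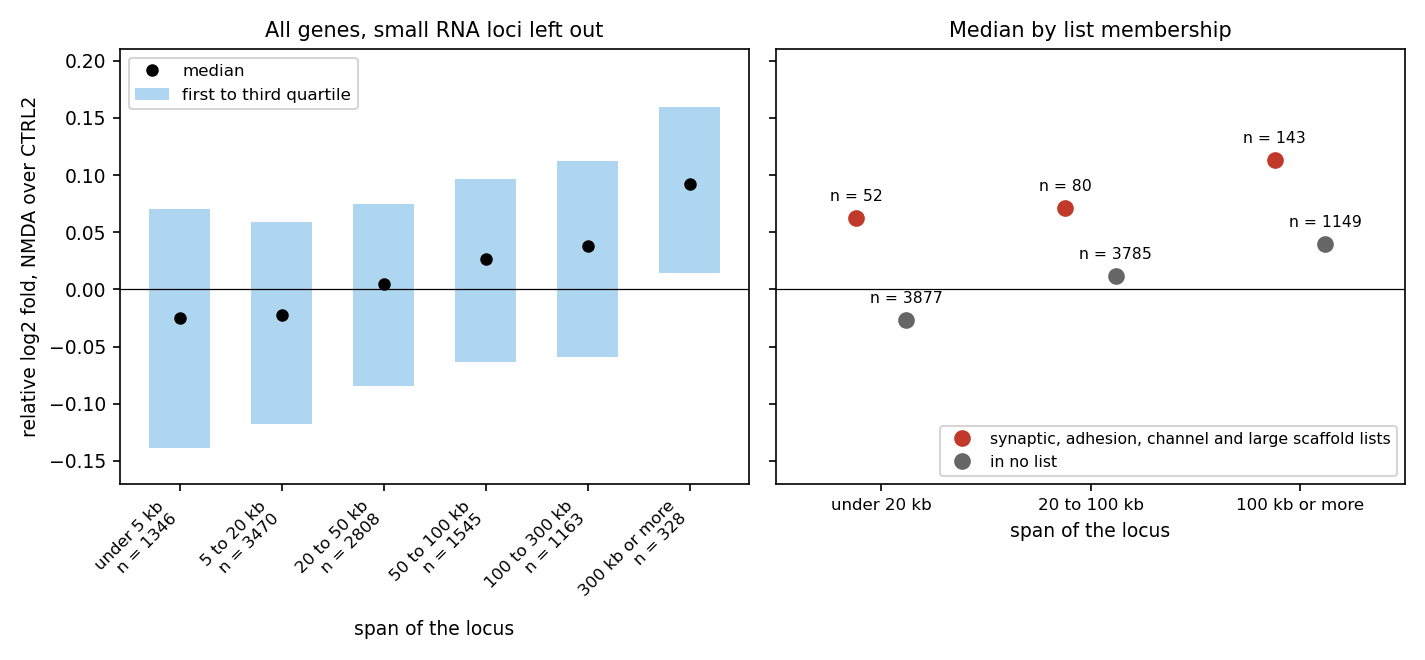
Relative log2 fold against CTRL2 (y axis) by genomic span of the locus. On the left, medians (dots) with quartiles (bars) climb from -0.03 to 0.09, and on the right the median of the synaptic, adhesion, channel and large scaffold lists (red) lies above that of genes in no list (grey) in each class of span.

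Imprinted and nuclear long noncoding RNAs had the lowest median of the lists with more than 3 measured members, -0.23, with 16 of 21 below 0, 4 past 1.5-fold downward and 0 upward. Meg3, a maternally expressed noncoding RNA of the imprinted Dlk1-Dio3 domain (chromosome 12, 110779206 to 110809939), was at 267 FPKM in CTRL2 and 111 with NMDA, a CTRL2 to NMDA ratio of 2.41 (2.38 to 2.45). Its exons overlap other genes on both strands, so the share of reads that is Meg3 alone is uncertain. Miat, a nuclear RNA of neurons, was at 23 and 12.8 FPKM (1.80-fold, 1.70 to 1.90), Snhg11 at 5.57 and 3.04, and Mirg, the microRNA host at the far end of the Meg3 domain, at 7.76 and 4.42. Malat1 and Neat1, the RNAs of nuclear speckles and paraspeckles, were at 764 and 567 FPKM (relative log2 fold -0.45) and at 2.82 and 1.87 (-0.44). Snhg6, a snoRNA host, went the other way, at 71.9 and 96.3 FPKM (0.39). Against CTRL the list's median was -0.49 and the relative log2 fold of Meg3 -1.69, the same direction. Noncoding RNAs as a class did not have as low a median, at -0.01 over 146 long intergenic RNAs and -0.06 over 85 processed transcripts in the annotation. Of these, 20 and 18 passed the smaller threshold downward, and 11 and 4 upward. The shares among all genes that were not small RNA loci were 3.98% downward and 1.29% upward. Imprinted protein-coding genes had a median of 0.03 over 22.

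In the domain of Meg3 most of the genes other than small RNA loci, Meg3 among them, had lower values with NMDA. From Dlk1 to Mirg, 35 genes were compared, 29 of them small RNA loci. Of the other 6, 5 were below 0, where 50.2% of all genes that were not small RNA loci lay above 0. The 5 include Meg3, which drew attention to the domain, and Mirg, both named above, so they are not separate support. The others below 0 were Rian, a snoRNA host, at 215 FPKM in CTRL2 and 189 with NMDA, the paternally expressed Dlk1 at 1.83 and 1.12, and Rtl1 at 1.89 and 1.27. Rtl1 shares its locus with other entries. Of the 29 small loci 24 were lower and 5 higher, 20 were listed at 0 with NMDA and 5 at 0 in CTRL2, and 4 were above 0 in both. Over all 210 small loci 132 were below 0, 63 were listed at 0 with NMDA and 33 at 0 in CTRL2, a lean in the same direction. The FPKM of the 29 loci summed to 2827 in CTRL2 and 988 with NMDA. The counting error of these values is not known, because a locus shorter than a fragment has no reliable effective length.

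All 6 small loci in the authors' deposited table (2.86% of 210) are microRNAs of this domain, and their mature products are shown for that reason. The sequences are from RefSeq, with the seed, bases 2 to 8, in capitals, and 11 mature products matched the 6 loci.
mmu-miR-382-5p: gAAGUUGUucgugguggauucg
mmu-miR-382-3p: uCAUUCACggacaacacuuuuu
mmu-miR-679-5p: gGACUGUGaggugacucuuggu
mmu-miR-679-3p: aGCAAGGUccuccucacaguag
mmu-miR-487b-5p: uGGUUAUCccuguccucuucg
mmu-miR-1193-5p: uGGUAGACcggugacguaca
mmu-miR-1193-3p: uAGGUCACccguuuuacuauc
mmu-miR-1197-5p: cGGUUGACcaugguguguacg
mmu-miR-1197-3p: uAGGACACauggucuacuucu
mmu-miR-654-5p: uGGUAAGCugcagaacaugugu
mmu-miR-654-3p: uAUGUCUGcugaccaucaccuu
The 11 seeds were all different, so the loci share a position and not a seed. In CTRL2 the loci stood at 226 FPKM for Mir382, 203 for Mir679, 147 for Mir487b and 57.0 for Mir1193, and all 4 were listed at 0 with NMDA. Mir1197 and Mir654 were the reverse, listed at 0 in CTRL2 and at 79.1 and 146 FPKM with NMDA. Neighbouring loci thus stood at 0 in opposite libraries. A fragment library of total RNA is not made to capture mature microRNAs, so the values concern the loci and not the mature products.

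Small RNA loci as a whole differed between the libraries far more than other genes did. Of 210, 96 (45.7%) were listed at 0 in 1 library, against 0.0546% of the other genes. The share was 74 of 108 for microRNA loci, 16 of 50 for C/D box snoRNAs, which guide ribose methylation, and 3 of 32 for H/ACA box snoRNAs, which guide pseudouridylation. A locus at 0 in 1 library was compared only because of its value in the other. FPKM divides by length, so few fragments on a short locus can give a high value. How much of these shares goes with the filter and with locus length was not tested. Among the 114 above 0 in both, the median was -0.16, with 20 past 1.5-fold upward and 29 downward. The C/D box snoRNAs in that group had 25 of 34 below 0 and a median of -0.29, beside 0.01 for 29 H/ACA box snoRNAs.

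The most abundant small loci were close between the libraries. Rpph1, the RNA of RNase P, was at 49190 FPKM in CTRL2 and 51300 with NMDA, and Rmrp, the RNA of RNase MRP, at 24505 and 24091. The Cajal body RNAs Scarna2 and Scarna10 were at 82637 and 94836 and at 41794 and 53192 FPKM. Mir5109 alone held 51.9% and 52.3% of the FPKM sum. Among the snoRNAs with the widest gaps, 5 were set beside a host gene, and the hosts had no gap of that kind. Snord42a was at 1656 FPKM in CTRL2 and listed at 0 with NMDA, while Snord42b, in the same host Rpl23a, was listed at 0 and at 1068. Rpl23a itself was at 1205 and 1142. Snord68 was at 1811 and 0 in the host Rpl13 at 824 and 902, and Snord66 at 779 and 0 in Eif4g1 at 75.5 and 80.5. Snord37 was listed at 0 and at 453 in Eef2, which was at 602 and 632. Snord64, listed at 0 in CTRL2 and at 1771 FPKM with NMDA, and Snord70 were not set beside a host. Snord70 and Snord37, on different chromosomes, carry 1 identical value with NMDA and are both listed at 0 in CTRL2. The loci above 0 in 1 library only can therefore not be read as switched on or off.

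**Figure D5:**
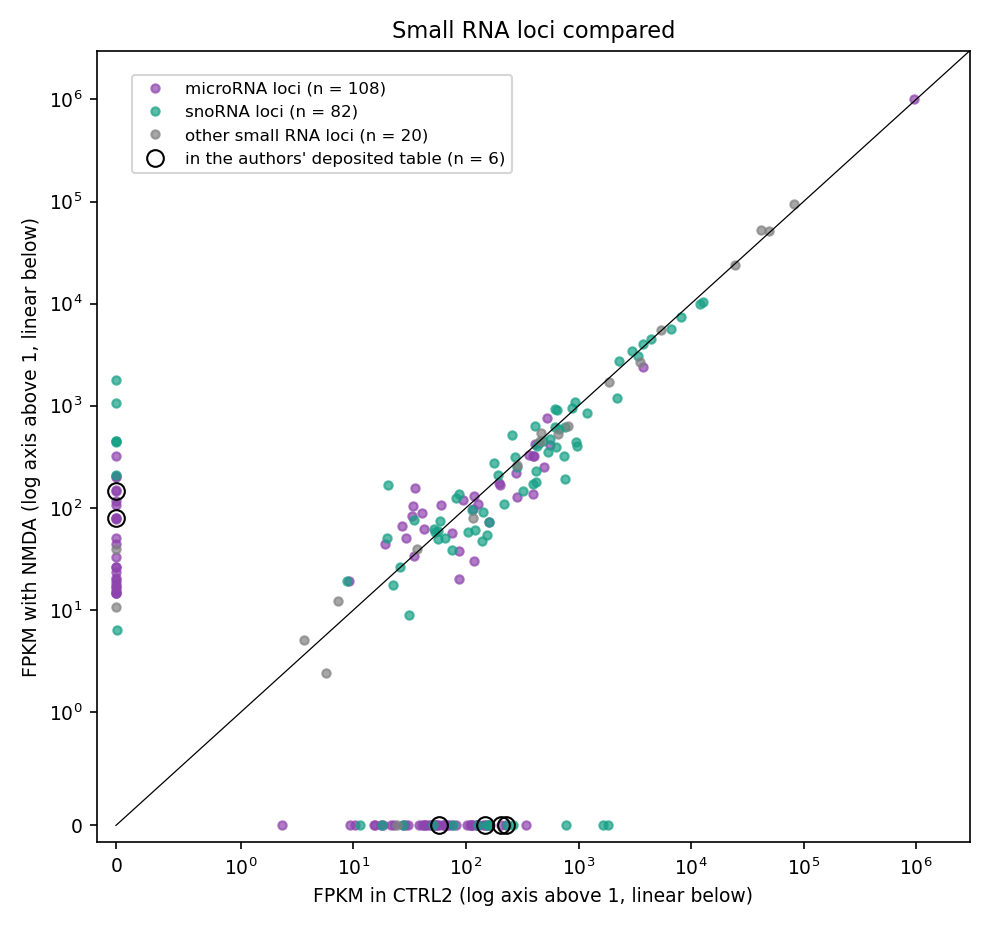
FPKM in CTRL2 (x axis) and with NMDA (y axis) of the 210 small RNA loci, 1 dot a locus, on axes that are logarithmic above 1 and linear to 0, with the line of equal values. The 96 loci at 0 in 1 library lie along the axes, including the 6 in the authors' deposited table (rings), while the most abundant loci lie near the line.

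Glycolysis and hypoxia genes were mostly below the median gene. Of 39 measured 31 were below 0, with a median of -0.14, 4 past the smaller threshold downward and 0 upward. Slc16a3, the lactate exporter, was at 4.77 FPKM in CTRL2 and 2.51 with NMDA, and P4ha2, a collagen prolyl hydroxylase, at 5.07 and 3.26. Vegfa, the vascular growth factor, was at 30.2 and 24.1 FPKM (relative log2 fold -0.34), and Slc2a1, the glucose transporter, at 22.8 and 18.7 (-0.30). The glycolytic enzymes had 15 of 16 below 0 and none past the smaller threshold, with Ldha at 347 and 301 FPKM. Against CTRL the list's median was 0.30, the opposite direction, and P4ha2 (0.53) and Vegfa (0.22) turned with it. Sterol and fatty acid synthesis, another metabolic list, had 25 of 29 above 0 and a median of 0.05, and its median was -0.36 against CTRL.

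Inflammatory genes were low in level and mostly below the median gene. NF-kB subunits and targets had 16 of 18 measured below 0, a median of -0.18, 5 past the smaller threshold and 2 past 1.5-fold, all downward. These 2 were Relb, a subunit of the noncanonical pathway, at 4.59 FPKM in CTRL2 and 2.49 with NMDA, and the chemokine Cxcl10 at 3.66 and 2.11. Interferon and antigen presentation genes had 13 of 16 below 0 and a median of -0.15, with Ifitm3, an antiviral membrane protein, at 12.7 and 8.30 FPKM and H2-K1, a class I antigen-presenting molecule, at 15.4 and 11.7. C3, the central complement protein, was at 10.1 and 5.79 FPKM and is in the authors' deposited table. The NF-kB median was -0.14 and the interferon median -0.23 against CTRL.

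Markers of the cells that a cortical culture can hold beside neurons also lay mostly below the median gene. Neuronal markers were abundant in both libraries. All 11 pan-neuronal markers were measured, and they summed to 2442 FPKM in CTRL2 and 2523 with NMDA, with Tubb3 at 606 and 653. Their median was 0.07, beside 0.02 for excitatory and 0.05 for inhibitory neuron markers. Astrocyte markers were present as well, with Gfap at 113 and 93.9 FPKM and a summed level of 1437 and 1400 FPKM over the list, and 13 of 14 were below 0 (median -0.07). All 12 measured oligodendrocyte lineage markers were below 0 (median -0.10), from 236 to 228 FPKM in sum. Microglial markers summed to 8.89 and 6.69 FPKM over 13 genes, of which 3 reached 1 FPKM, all 3 below 0. Trem2 was near 0 in both libraries, at 0.048 FPKM in CTRL2 and listed at 0 with NMDA. Endothelial and mural markers had 4 of 5 below 0, summing to 51.2 and 42.9 FPKM. Cldn5, Cdh5 and Tie1 were near 0 in both, at 0.058, 0.011 and 0.012 FPKM in CTRL2 and listed at 0 with NMDA, all under the value of 3 fragments on 1 kb (0.157 FPKM in CTRL2). Progenitor markers had 8 of 12 below 0, with Vim at 314 and 257 FPKM and Nes at 16.7 and 12.9. Against CTRL the medians were 1.09 for astrocyte, 1.37 for oligodendrocyte lineage, 0.57 for endothelial and mural and 0.93 for progenitor markers, and -0.21 for pan-neuronal, -0.26 for excitatory and -0.27 for inhibitory neuron markers. The direction of all 7 marker lists thus turned with the control. Against CTRL2 the lists of other cells lay in the direction of the inflammatory, collagen and glycolytic lists, and their part in those values was not tested. In bulk RNA fewer cells of a type and less RNA per cell cannot be told apart.

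Matrix genes lay in the same direction. Collagens had 13 of 17 below 0 and a median of -0.14, and laminins and fibronectin 9 of 11 and -0.12. Col5a1, a fibrillar collagen, was at 4.76 FPKM in CTRL2 and 2.94 with NMDA and is in the authors' deposited table. Sparc, a collagen-binding protein, was at 124 and 99.9 FPKM. Integrins, their receptors, had 8 of 11 above 0. Chrd, a BMP antagonist, was at 2.20 and 1.05 FPKM, and Dll3, a Notch ligand, at 8.39 and 4.88. The metallothioneins Mt1 and Mt2, which bind zinc and copper, were at 857 and 699 FPKM and at 380 and 306. Against CTRL the relative log2 fold of Mt2 turned, from -0.33 to 0.26. The median of the metallothionein and oxidative stress list also turned, from -0.09 to 0.26.

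Families of general cell maintenance had medians near 0 against CTRL2. Cytosolic ribosomal protein genes had a median of -0.03 over 76, translation factors 0.00 over 58, mitochondrial ribosomal proteins 0.01 over 75, oxidative phosphorylation genes -0.01 over 81 and the proteasome -0.03 over 36. Against CTRL these medians were 1.91 for cytosolic ribosomal proteins, 0.12 for translation factors, 0.37 for mitochondrial ribosomal proteins, 0.58 for oxidative phosphorylation and 0.02 for the proteasome. Chromatin regulators had a median of 0.02 over 58 and splicing factors 0.00 over 53, with none of the former past the smaller threshold. Zinc finger genes, the largest family listed, had a median of 0.03 over 320, with 5 past that threshold upward and 6 downward. The break repair list, named because the series examined DNA breaks, had a median of -0.04 over 37, and Top2b, the topoisomerase of neurons, was at 58.5 FPKM in CTRL2 and 67.7 with NMDA. The p53 targets had a median of -0.04 over 25, with Cdkn1a, the cell cycle inhibitor, at 25.2 and 22.2 FPKM. Replication-dependent histone genes scattered widely, with 5 of 55 past that threshold upward and 8 downward. They are near-identical short copies without a poly(A) tail, so the values of single members, such as Hist1h2bj at 9.93 and 20.7 FPKM, are uncertain.

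By size alone, the largest differences at a mean of 5 FPKM or more were partly in such uncertain genes. Of 9404 genes at that level, 9 (0.0957%) passed 1.5-fold upward and 23 (0.245%) downward. Among the 12 largest on the higher side, Atp6v0c-ps2 at 7.71 and 117 FPKM, Pisd-ps3 at 6.14 and 16.5 and Rps19-ps3 at 6.2 and 12.7 are pseudogenes, and Pisd-ps1, on the locus of Pisd-ps3, was lower at 35.1 and 19.4. Purg, a nucleic acid binding protein of the Pur family, was at 24.5 FPKM in CTRL2 and 37.3 with NMDA, a ratio of 1.52 (1.39 to 1.66). Exosc6, an RNA exosome subunit that shares its locus with another listed gene, was at 8.53 and 14.9 FPKM. Atg10, an autophagy enzyme at a lower level, was at 2.91 and 5.62 FPKM, a ratio of 1.93 (1.48 to 2.52).

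On the lower side were Trank1, a large protein whose function is poorly known, at 24.6 FPKM in CTRL2 and 13.8 with NMDA (1.78-fold, 1.70 to 1.87), Flna, an actin crosslinker, at 41.7 and 25.8 (1.62-fold, 1.55 to 1.68), and Rgs11, a GTPase-activating protein for G proteins, at 9.01 and 3.80 (2.37-fold, 1.99 to 2.83). Rgs11 rests on an estimated 467 and 181 fragments, fewer than Trank1 with 4956 and 2548. S100a11, a calcium-binding protein, was at 19 and 11.2 FPKM. Flna is also in the authors' deposited table. Of the same side, Mirlet7g at 29.5 and 0 FPKM and Snhg9 at 10.8 and 0 are short transcripts outside the small locus rule by symbol or span, and Wdr82, which shares the locus of Mirlet7g, was at 40.8 and 45.4. Ndufs5, a complex I subunit that shares its locus with another gene, was at 6.76 and 0.0029 FPKM and is likewise uncertain. Against CTRL the direction turned for Rgs11, which had 3 FPKM there after scaling, and for C3, which had 1.89.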

How the data were processed

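RNA-seq was read in 1 NMDA and 1 CTRL2 library, with CTRL as an alternative control. Values are FPKM as deposited, and how the authors derived them was not given in the sources used here. The submitters' processing notes list, without roles, HOMER, Picard, BWA, TopHat with Bowtie, Cuffdiff and Cufflinks (2.0.0), and the mouse build mm9. Per the labels' protocols the libraries came from total RNA with paired-end reads. The authors' deposited table gives a control and a treated FPKM for 63 genes. How it was filtered was not given either. Folds, lists and intervals were computed with Python 3.11.15, pandas 2.3.3, numpy 2.4.6 and scipy 1.17.1. Only the calculation of folds was checked on simulated data. A single fragment on 1 kb was worth about 0.0522 FPKM in CTRL2 and 0.0569 with NMDA, from 37 and 19 single-exon genes, so fragment numbers are approximate. Small RNA loci span at most 300 bases or carry such a symbol. Transcript lengths and overlaps came from GENCODE of the same build, matched for 12762 of 13028 genes.

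Genes were named by rule: the 12 largest relative folds each way at a mean of at least 5 FPKM, all activity-induced factors, up to 6 members of each list by size and its most abundant member, list members in the authors' deposited table, and the extreme and most abundant small loci. Further genes named were chosen after their values were seen. The members and the 63 lists were chosen with earlier results of these data known. Alternatives were pseudocounts, filters, centring, scaling, thresholds, leaving out small RNA loci, and CTRL as control. Some genes that this rule names are not reported here.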

Additional observations from a re-analysis of the deposited data

How the results depend on the processing

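No paired analysis was possible because each group has 1 library, and for the same reason no library could be left out. The 84 genes at least 1.5-fold higher became 31 without small RNA loci, 225 at the smaller threshold, 54 at 2-fold and 1720 against CTRL with median scaling. The 172 lower became 81, 613, 95 and 937 in the same order, 301 with a pseudocount of 0.1 FPKM, 109 with 5 FPKM and 114 at a mean of at least 5 FPKM. The other settings left both counts within 1.5 times. All 11 list medians of at least 0.1 in size kept their sign under 6 of the 7 alternatives on the same control, and all 10 that could be recomputed under the seventh, a mean of at least 5 FPKM. Against CTRL 4 of 10 did, and 16 of all 61 medians. The medians of at least 0.1 in size that turned were Postsynaptic scaffolds -0.041, Neurexins, neuroligins and LRR adhesion -0.19, Ryanodine and IP3 receptors and calcium pumps -0.25, Very large ankyrin, spectrin and cytolinker genes -0.21, Glycolysis and hypoxia 0.30 and endothelial and mural markers 0.57. Of the genes past 1.5-fold, only list members and the genes named by size were recomputed singly. Those that turned were C3 0.82, Dll3 1.20, Hist1h2ba 1.44, Hist1h2bj -0.067, Hist2h3b -2.85, LOC100504703 0.10, Pisd-ps1 2.76, Pisd-ps3 -1.94, Rgs11 0.17 and Rps19-ps3 -0.64, which is 10 of 34 recomputed, and 0 turned on the same control. The cause was not tested. Depth limits low genes, with 3 fragments on 1 kb worth 0.157 FPKM in CTRL2 and 0.171 with NMDA.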
